A study of Mus musculus with 4 samples.

Results

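The genes described here encode the TGF-β superfamily pathway in mouse, from its TGF-β, BMP, GDF, activin, nodal and lefty ligands through receptors and Smad proteins to secreted antagonists. They were taken by symbol from a fixed list of 55 genes, and all 55 were found among the 27095 gene windows of the count table. The mark measured was H3K27me3, the repressive histone modification written by the Polycomb complex PRC2, of which Suz12 is an obligate subunit. It was profiled by Cut&Tag, in which an antibody guides a Tn5 transposase to cut and tag the chromatin around it, in alveolar macrophages, which live in the airspaces of the lung and clear surfactant and particles. The comparison asked how the mark differs in these cells between hosts given mostly Suz12 cKO marrow and hosts given wild-type marrow. There were 2 libraries of each genotype, called biological replicates by the submitters, each from 100000 sorted cells. In the Suz12 cKO group, lethally irradiated C57BL/6-Ly5.1 hosts had received marrow that was 90% Suz12 cKO Ly5.2 and 10% wild-type Ly5.1. In the WT group the same kind of host had received 90% wild-type Ly5.2 and 10% wild-type Ly5.1 marrow. Both groups therefore share irradiation, transplantation and a wild-type competitor. The sources used here do not give the promoter that drives the deletion or the age of the mice, nor whether Ly5.1 cells, from the competitor or surviving in the host, were left out when sorting.

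Ligands of this family bind pairs of type I and type II receptor kinases, which phosphorylate receptor Smads; these join Smad4 and enter the nucleus. TGF-β and activin signal mainly through Smad2 and Smad3, and BMPs through Smad1, Smad5 and Smad9, while Smad6 and Smad7 inhibit. In mice, autocrine TGF-β is required for alveolar macrophages to develop and persist. Many BMP and GDF genes are classical Polycomb targets, silent outside the embryonic tissues that they pattern.

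The libraries held 3331138 and 3567282 counts over gene windows in Suz12 cKO, against 2592297 and 2142175 in WT. Replicates of a genotype differed by more than sampling noise (chi-square per degree of freedom 1.80 in Suz12 cKO and 2.04 in WT), and libraries of different genotype by more (3.79 to 4.30). A window is the gene with 3 kb on each side, so a value is the sum over promoter and gene body. Levels are given in CPM, counts divided by library size after TMM scaling, and compared between genes only as CPM per kb of window. Being shares of a library, CPM cannot show a shift common to every gene. The targeted gene, Suz12, had 3.33 and 2.89 CPM in Suz12 cKO, against 3.07 and 4.53 CPM in WT. These windows hold too few counts to test, the ratio of Suz12 cKO to WT being 0.801 (exact binomial 95% interval 0.406 to 1.59, counting error only), and a mark over the whole gene does not check a deletion. Genes of alveolar macrophage identity, which such cells express, had little mark (12 markers, median 0.206 CPM per kb in Suz12 cKO and 0.146 in WT). Medians over markers of T and NK cells (0.712 and 0.488), B cells (1.24 and 1.13), granulocytes (1.19 and 1.30), lung epithelium (1.82 and 2.01), endothelium (1.46 and 1.30) and fibroblasts (4.17 and 3.33) were higher in both genotypes. Single markers could lie lower: Cd79a of the B cells and Pecam1 of the endothelium stood below the alveolar macrophage median in both. The B cell marker Ms4a1 was at 0 in all 4 libraries, in a window 100% overlapped by others, where reads were mostly not counted. This 0 lowers the B cell median and says nothing of B cells. Summed levels were 107 to 115 CPM in Suz12 cKO and 86.5 to 92.8 CPM in WT for the alveolar macrophage markers, and 606 to 614 and 520 to 559 CPM for the fibroblast markers, of which 1 of 4, Pdgfrb, gained. The alveolar macrophage, fibroblast and endothelial sums did not overlap between genotypes. Those of the T and NK, B, granulocyte and lung epithelium markers did. Of all genes tested, 23.8% had both Suz12 cKO libraries above both WT libraries and 23.8% below, so little is read from this. The endothelial sums lay close, at 465 to 485 and 456 to 458 CPM. Fibroblast markers were mixed, with Pdgfra and Pdgfrb higher and Col1a1 and Col1a2 lower in Suz12 cKO. The part of other cell types in the results below was not tested.

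Of the 55 genes, 54 had enough counts to test with edgeR's quasi-likelihood test, adjusted by Benjamini-Hochberg over all 16752 genes tested, and an adjusted p below 0.05 is called a gain or a loss. Zfyve9, Tgfb2, Acvr1c, Acvrl1, Smad6 and Bambi gained H3K27me3 in the Suz12 cKO group and 0 of the 54 lost it. Gains made up 4.46% of all genes tested and losses 1.96%, so 6 gains among 54 genes is 11.1% against that background. Of these 6 genes, Acvrl1 passed the count filter only through its Suz12 cKO libraries, so it could be tested only because it was high there. Among the 7808 genes with a mean of at least 50 counts the background of gains was 7.94% and that of losses 5.06%, and 34 of the 55 genes belonged to that class, of which 5 gained and 1, Ltbp1, lost. The median log2 fold change of the 54 genes was 0.08, beside −0.01 over all genes tested. Both Suz12 cKO libraries stood above both WT libraries at 19 of the 54 (35.2%), against 23.8% of all genes tested, and below both at 12 (22.2%), against 23.8%. The cause of the gains, in cells of hosts given mostly Suz12 cKO marrow, was not tested.

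**Figure D1:**
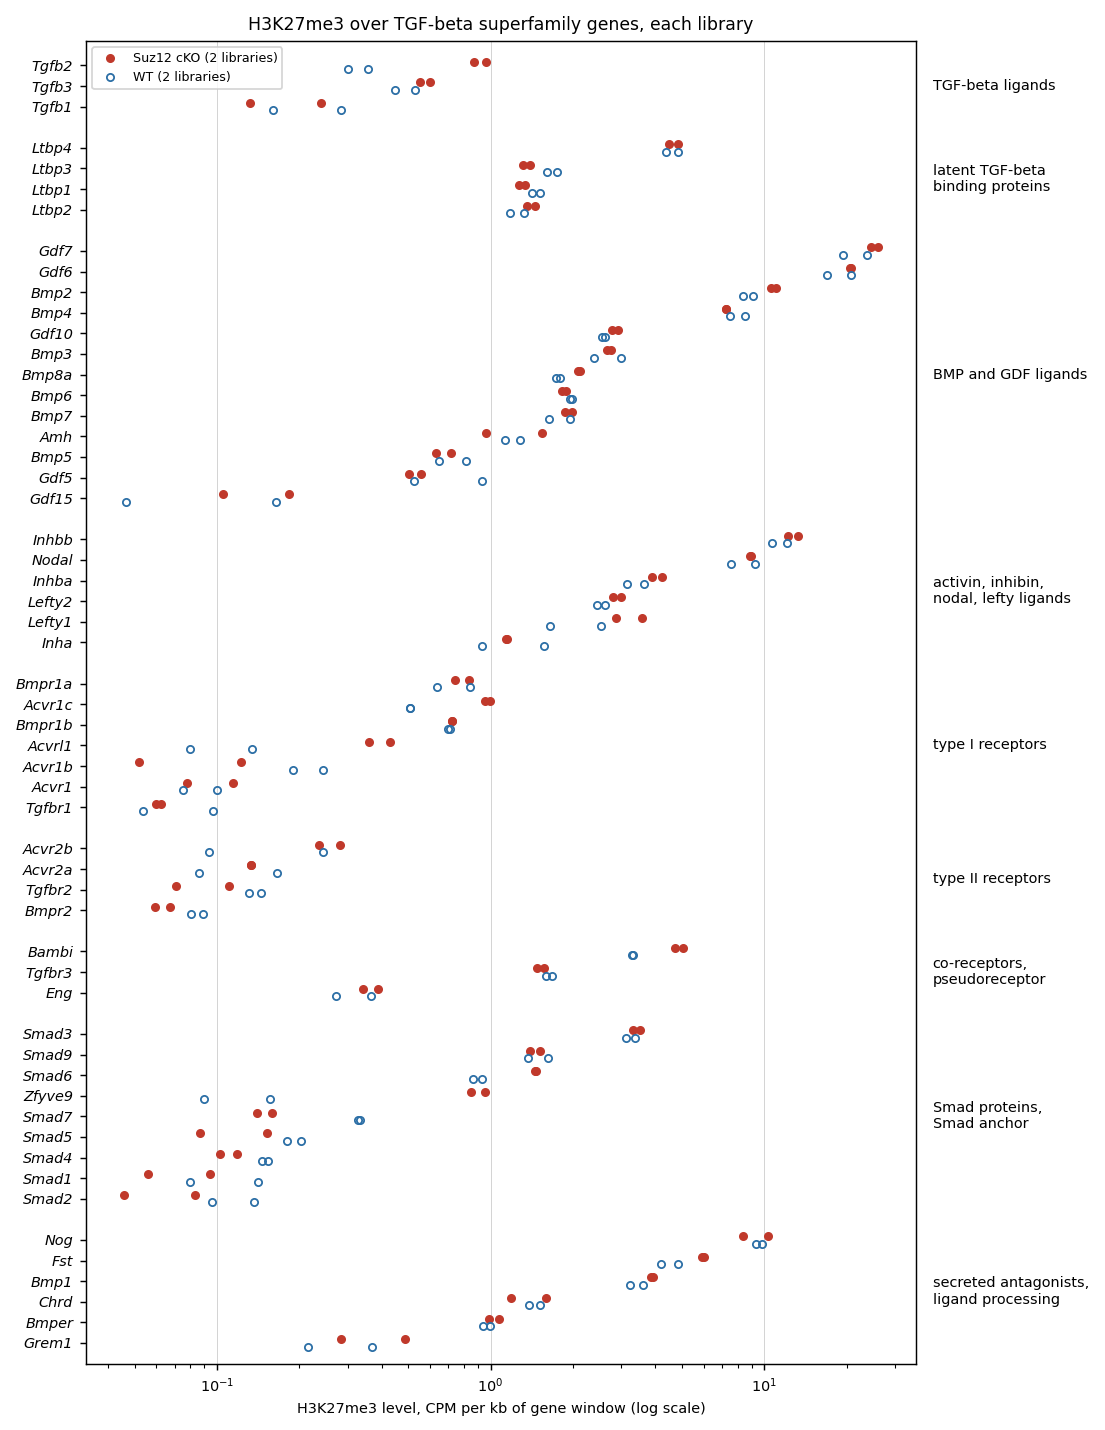
H3K27me3 level of each of the 55 genes in every library, in CPM per kb of gene window on a log axis, with Suz12 cKO libraries as filled red points and WT libraries as open blue points, grouped by the role of the protein. Levels run from 0.0681 CPM per kb at Tgfbr1 to 23.4 at Gdf7 (means over 4 libraries), and at most genes the points of both genotypes lie close together.

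The mark was unevenly spread over the pathway, and high on several ligands and antagonists that pattern the embryo. Others, such as Bmp5, Gdf5, Tgfb3 and Grem1, stood near or below the median of all genes tested. Tgfbr1, the type II receptors and 5 of the 8 Smads were low, these Smads ranging from 0.0904 (Smad2) to 0.240 CPM per kb (Smad7). A long window can hold many counts yet rank lower per kb. Ltbp1 had 512 CPM in Suz12 cKO and 577 CPM in WT over 393 kb, and stood at 1.38 CPM per kb over the 4 libraries. Of the 54 genes tested, 12 stood in the top 10% of all genes tested by mean CPM per kb, making up 22.2%. They comprised 4 BMP and GDF ligands (Gdf7, Gdf6, Bmp2 and Bmp4), 3 activin and nodal ligands (Inhbb, Nodal and Inhba), 3 secreted antagonists or ligand-processing proteins (Nog, Fst and Bmp1), the latent TGF-β binding protein Ltbp4 and the pseudoreceptor Bambi. Of the 11 type I and type II receptor genes, 0 stood there. The median over 34 housekeeping genes was 0.0761 CPM per kb in Suz12 cKO and 0.0825 in WT, and that over the 4 type II receptor genes was 0.112 and 0.132. No library made with a control antibody was used here, so counts at this level cannot be told apart from background.

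Zfyve9, which encodes SARA, the anchor that presents Smad2 and Smad3 to the TGF-β receptor, changed most. Its window had 77.1 and 86.6 CPM in Suz12 cKO, against 14.2 and 8.15 CPM in WT. Both Suz12 cKO libraries stood far above both WT libraries, a 7.17-fold difference (log2 fold change 2.84 ± 0.20 SE, edgeR adjusted p = 1.51e-31). Per kb, the gene stood below the median of all tested genes in WT (0.123 ± 0.0471 against a median of 0.664) and above it in Suz12 cKO (0.903 ± 0.0744 against 0.679; SD, n = 2 each). The reference gene lies on chromosome 4 at 108637466 to 108781269 in GRCm38.p6, but the counted window is 59186 bp shorter than that span with its flanks, so where the counted window starts and ends is not known and no promoter sequence is shown. By reference positions, 4.77% of its window overlaps others. The nearest tested protein-coding genes on both sides were not called: Cc2d1b, whose end overlaps that of Zfyve9, had a log2 fold change of −0.06 (adjusted p = 0.934) and Rab3b, 97.8 kb away, one of 0.06 (adjusted p = 0.854).

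Of the TGF-β ligands, Tgfb2 gained while Tgfb1 and Tgfb3 did not pass the test. Tgfb2, a ligand of heart, palate and eye development, had 77.4 and 85.5 CPM in Suz12 cKO, against 26.8 and 31.7 CPM in WT. The genotypes were well apart, by 2.80-fold (log2 fold change 1.48 ± 0.16, edgeR adjusted p = 8.18e-15). Tgfb1, the ligand that alveolar macrophages themselves make, had 5.74 and 3.18 CPM in Suz12 cKO, against 3.83 and 6.79 CPM in WT. These values overlap and are low, and the 95% interval of the log2 fold change, −1.24 to 0.77, still holds a 2-fold loss, so a moderate change was not detectable at this depth (adjusted p = 0.870, with 23.1% of its window overlapped). Tgfb3, a ligand of palate and lung development, had 16.3 ± 0.945 CPM in Suz12 cKO and 13.8 ± 1.62 CPM in WT (SD, n = 2 each; adjusted p = 0.721). Per kb, Tgfb2 in WT (0.330) stood between Tgfb1 (0.221) and Tgfb3 (0.488), and in Suz12 cKO it was the highest of the 3, at 0.917 against 0.575 for Tgfb3 and 0.186 for Tgfb1.

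The 4 latent TGF-β binding proteins, which hold secreted TGF-β in the matrix, had moderate to high levels, and 0 passed the test. Ltbp4 was the most marked per kb, with 173 and 186 CPM in Suz12 cKO, against 186 and 168 CPM in WT. These overlap, with a log2 fold change of 0.02 (95% interval −0.19 to 0.23). Ltbp1 had 512 ± 18.5 CPM in Suz12 cKO and 577 ± 27.7 CPM in WT (adjusted p = 0.265), and was called as lost at −0.22 when genes with a mean under 50 counts were left out (adjusted p = 0.0296) and at −0.26 with upper-quartile factors (adjusted p = 0.0332). Ltbp3 had 32.0 ± 1.26 CPM in Suz12 cKO and 39.6 ± 2.29 CPM in WT, and Ltbp2 139.6 ± 6.75 and 124.6 ± 10.4 CPM (adjusted p = 0.415 and 0.489).

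Of the BMP and GDF ligands 0 of the 12 tested was called, and the group held Gdf7 and Gdf6, the genes with the highest values per kb of the pathway. Gdf7, a ligand of the dorsal neural tube, had 262 and 246 CPM in Suz12 cKO, against 238 and 195 CPM in WT. Gdf6, a ligand of joint and skull development, had 492 and 498 CPM in Suz12 cKO, against 497 and 408 CPM in WT. Both Gdf7 libraries of Suz12 cKO stood above those of WT, and Gdf6 overlapped. For both genes the WT libraries lay further from each other than the genotype means did, and the log2 fold changes were 0.23 (95% interval 0.03 to 0.42, adjusted p = 0.186) and 0.13 (−0.05 to 0.30, adjusted p = 0.473). Both were called as gained without WT library 1, at 0.39 (adjusted p = 0.0161) and 0.29 (adjusted p = 0.0420). By reference positions 88.6% of the Gdf7 window overlaps others, so its level is uncertain. Bmp2, a bone and heart ligand, had 166 and 174 CPM in Suz12 cKO, against 142 and 131 CPM in WT. Its groups did not overlap, with a log2 fold change of 0.31 ± 0.11, but its adjusted p was 0.0717, and 25.0% of its window is overlapped. Bmp4, needed for mesoderm and lung budding, had 94.9 and 94.4 CPM in Suz12 cKO, against 111.2 and 97.8 CPM in WT, with an adjusted p of 0.585 and 46.3% of its window overlapped.

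The other ligands of this group formed a gradient. Gdf10 (2.84 ± 0.108 CPM per kb in Suz12 cKO and 2.59 ± 0.0448 in WT), Bmp3 (2.71 ± 0.0559 and 2.69 ± 0.442), Bmp8a (2.11 ± 0.0230 and 1.76 ± 0.0422), Bmp7 (1.93 ± 0.0793 and 1.79 ± 0.223) and Bmp6 (1.85 ± 0.0418 and 1.97 ± 0.0316) stood at intermediate levels (SD, n = 2 each). Bmp5 (0.673 ± 0.0587 and 0.730 ± 0.114) and Gdf5 (0.529 ± 0.0374 and 0.726 ± 0.284) stood near the median of all genes. Amh, the hormone of Müllerian duct regression, had 10.5 ± 3.48 CPM in Suz12 cKO and 10.1 ± 0.869 CPM in WT in a window that lies wholly within others, so its values are uncertain. Gdf15, a stress-induced cytokine, held only 8 counts over both Suz12 cKO libraries and 4 over both WT libraries, too few to test; the ratio of the summed shares was 1.37 (exact binomial 95% interval 0.368 to 6.23).

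The activin, nodal and lefty ligands were marked like the BMPs, and 0 of 6 was called. Inhbb, the βB subunit of activin and inhibin, had 156 and 169 CPM in Suz12 cKO, against 155 and 136 CPM in WT, with a log2 fold change of 0.15 (95% interval −0.06 to 0.37, adjusted p = 0.495). Nodal, which sets the left-right axis and mesoderm, had 118.8 and 119.8 CPM in Suz12 cKO, against 123.8 and 101.0 CPM in WT, and the groups overlapped. Inhba, the βA subunit, had 76.1 ± 4.63 CPM in Suz12 cKO and 63.5 ± 6.27 CPM in WT (adjusted p = 0.297), in a counted window 14617 bp shorter than the reference span with flanks, so its level per kb is uncertain. Lefty1, an antagonist of Nodal, had 30.2 ± 4.66 CPM in Suz12 cKO and 19.6 ± 5.93 CPM in WT (log2 fold change 0.61 ± 0.23). Its adjusted p was 0.0905, and 0.0274 without WT library 1, where the log2 fold change was 0.98. Its paralog Lefty2, 35.9 kb away on chromosome 1, had 34.7 ± 1.59 and 30.4 ± 1.42 CPM (adjusted p = 0.681). Inha, the inhibin α subunit, had 10.6 ± 0.0728 and 11.6 ± 4.22 CPM (adjusted p = 0.881), with 58.2% of its window overlapped.

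Among the 7 type I receptors, Acvr1c and Acvrl1 gained and the other 5 did not pass the test. Acvr1c encodes ALK7, a receptor for activin B, nodal and GDF3 known from fat and pancreatic islets, and its gene lies 88.5 kb from that of Acvr1, the receptor ALK2, on chromosome 2. Acvr1c had 91.9 and 95.9 CPM in Suz12 cKO, against 49.1 and 48.9 CPM in WT. Replicates nearly coincided within each genotype, and the difference was 1.92-fold (log2 fold change 0.94 ± 0.14, edgeR adjusted p = 3.36e-08, with 16.7% of the window overlapped). Acvr1 had 14.5 and 9.82 CPM in Suz12 cKO, against 12.7 and 9.51 CPM in WT, with overlapping groups (log2 fold change 0.12, 95% interval −0.52 to 0.76). Per kb, Acvr1c stood at 0.954 and 0.995 in Suz12 cKO and at 0.510 and 0.508 in WT, and Acvr1 averaged 0.0962 in Suz12 cKO and 0.0877 in WT. The difference in change between the neighbours was not tested. The 250 bases before their starts are shown because CpG-rich promoters are where Polycomb complexes are known to load; the sequences are from RefSeq (GRCm38.p6), both on the minus strand, chr2:58357759-58358008 and chr2:58566829-58567078, 5′ to 3′, with CG dinucleotides in capitals.
Acvr1c: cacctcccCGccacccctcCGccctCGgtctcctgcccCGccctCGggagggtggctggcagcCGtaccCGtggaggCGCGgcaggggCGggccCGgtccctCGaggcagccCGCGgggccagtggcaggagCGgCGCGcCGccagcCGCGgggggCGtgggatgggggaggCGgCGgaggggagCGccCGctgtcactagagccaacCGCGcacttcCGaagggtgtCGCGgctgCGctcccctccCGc
Acvr1: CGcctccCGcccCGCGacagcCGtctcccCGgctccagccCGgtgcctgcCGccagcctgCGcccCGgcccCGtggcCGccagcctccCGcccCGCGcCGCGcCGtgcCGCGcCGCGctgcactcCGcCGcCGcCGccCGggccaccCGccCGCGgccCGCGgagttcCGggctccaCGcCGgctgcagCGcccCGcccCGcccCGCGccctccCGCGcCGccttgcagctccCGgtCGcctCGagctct
The Acvr1c stretch holds 32 CG dinucleotides, a number reached by 5.54% of the 18458 genes with a start in the table, and that of Acvr1 holds 46, reached by 0.385%. The gene with fewer CG dinucleotides was the more marked.

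Acvrl1, the receptor ALK1 through which BMP9 acts on endothelium, lies 28.7 kb from Acvr1b, the activin receptor ALK4, on chromosome 15. Acvrl1 had 8.16 and 9.82 CPM in Suz12 cKO, against 3.07 and 1.81 CPM in WT, from 27 and 34 counts against 8 and 4. Its log2 fold change was 1.84 ± 0.51 (edgeR adjusted p = 0.00918). The call was lost without Suz12 cKO library 2 (adjusted p = 0.229), without WT library 2 (0.120) and with counts thinned to the smallest library (0.0793). Acvr1b had 5.44 and 2.31 CPM in Suz12 cKO, against 8.44 and 10.9 CPM in WT. Its groups did not overlap and its log2 fold change was −1.31 ± 0.45, but the adjusted p was 0.0588, and it was called as lost only without Suz12 cKO library 1 (adjusted p = 0.0368) and with thinned counts (0.00405) among the alternatives run. Endothelial marker genes, with a summed level of 465 to 485 CPM in Suz12 cKO and 456 to 458 CPM in WT, held 0 called genes of 4, and their part in the Acvrl1 value was not tested.

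The remaining receptors carried little mark or were not called. Tgfbr1, the type I receptor of TGF-β, had 4.23 and 4.04 CPM in Suz12 cKO, against 6.52 and 3.62 CPM in WT. Tgfbr2, its type II partner, had 6.65 and 10.4 CPM in Suz12 cKO, against 12.3 and 13.6 CPM in WT. The Tgfbr1 groups overlapped and the Tgfbr2 groups did not, with log2 fold changes of −0.31 (95% interval −1.33 to 0.71, adjusted p = 0.814) and −0.59 (−1.26 to 0.08, adjusted p = 0.357). At 0.0681 CPM per kb over the 4 libraries, Tgfbr1 was the least marked of the 55 genes. The BMP receptors Bmpr1a (43.8 ± 3.80 CPM in Suz12 cKO and 41.0 ± 8.03 CPM in WT) and Bmpr1b (109.0 ± 0.224 and 106.8 ± 1.36 CPM) had adjusted p of 0.807 and 0.937. Their counted windows are 42728 and 187335 bp shorter than the reference spans with flanks, so what part of each gene was counted is not known. Bmpr2 (7.10 ± 0.648 CPM in Suz12 cKO and 9.51 ± 0.647 CPM in WT), Acvr2a (12.7 ± 0.00569 and 11.9 ± 5.35 CPM) and Acvr2b (9.58 ± 1.15 and 6.25 ± 3.96 CPM), the type II receptors of BMPs and activins, had adjusted p of 0.618, 0.948 and 0.406, and the Acvr2b window is likewise 9551 bp shorter. Of the co-receptors, Tgfbr3 (betaglycan) had 287 ± 12.2 CPM in Suz12 cKO and 310 ± 10.4 CPM in WT (adjusted p = 0.609), and Eng (endoglin) 15.4 ± 1.33 and 13.4 ± 2.75 CPM (adjusted p = 0.781).

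Bambi, a kinase-less pseudoreceptor that blocks TGF-β and BMP receptors, was the one gained gene in the top 10% by level. It had 68.0 and 73.1 CPM in Suz12 cKO, against 47.9 and 47.5 CPM in WT. The groups were apart by 1.48-fold, with a log2 fold change of 0.56 ± 0.15 (edgeR adjusted p = 0.00755). The call was lost without Suz12 cKO library 1 (adjusted p = 0.0513), without Suz12 cKO library 2 (0.206), by DESeq2 (0.131) and when libraries were scaled to housekeeping genes (0.0677).

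**Figure D2:**
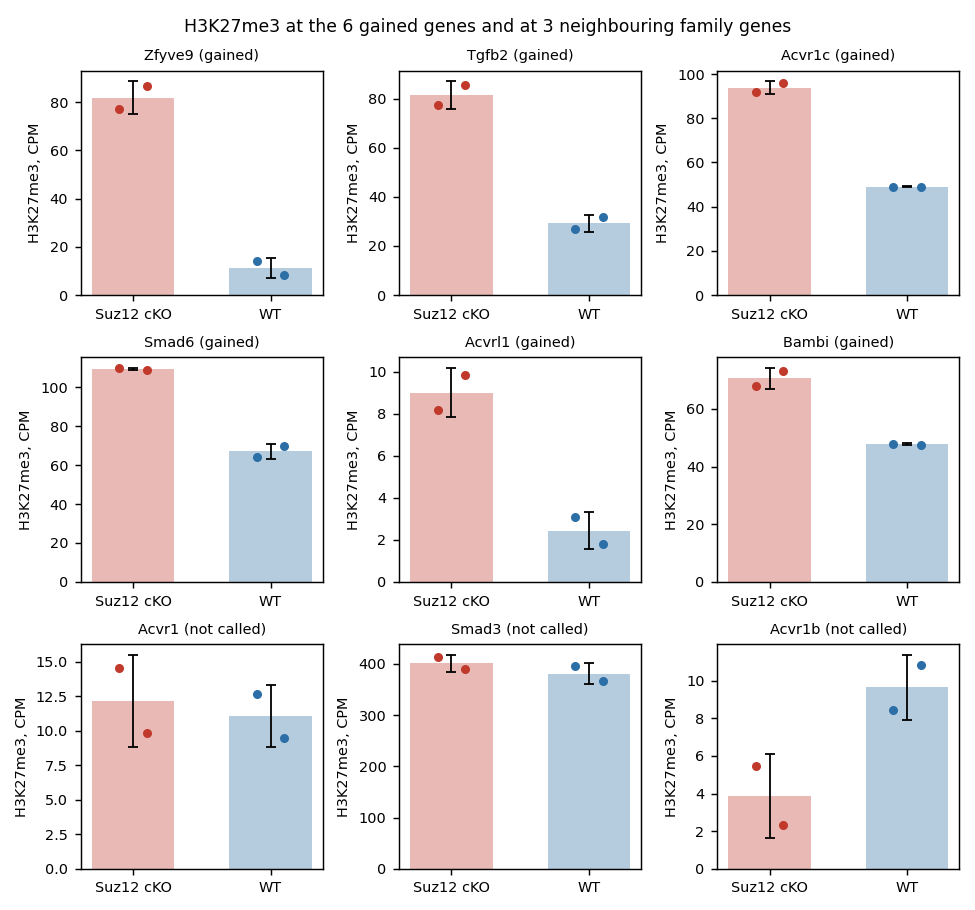
H3K27me3 in CPM (bars, mean; error bars, SD; points, the 2 libraries of each genotype) at the 6 gained genes and at the neighbouring family genes Acvr1, Smad3 and Acvr1b, with Suz12 cKO left of WT. The Suz12 cKO points of the 6 gained genes all lie above the WT points, as at Zfyve9 (77.1 and 86.6 against 14.2 and 8.15 CPM), while those of Acvr1 and Smad3 overlap and those of Acvr1b lie below.

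Of the 8 Smad genes, Smad6 gained and the other 7 did not pass the test. Smad6, an inhibitor of BMP signalling, and Smad3, the TGF-β and activin effector, are neighbours on chromosome 9, 195 kb apart. Smad6 had 109.7 and 109.2 CPM in Suz12 cKO, against 64.4 and 69.7 CPM in WT. That is a 1.63-fold difference with close replicates (log2 fold change 0.71 ± 0.13, edgeR adjusted p = 1.24e-05), and no other window overlaps it. Smad3 had 413 and 390 CPM in Suz12 cKO, against 395 and 366 CPM in WT. Its groups overlapped, and its log2 fold change of 0.07 had a 95% interval of −0.10 to 0.25, below that of Smad6 (0.45 to 0.97), although the difference between them was not tested. Lctl, the nearest tested protein-coding gene on the other side, averaged 38.9 CPM in Suz12 cKO and 25.9 CPM in WT and was not called, at a log2 fold change of 0.58 ± 0.20 (adjusted p = 0.0563). Per kb Smad3 was the more marked, at 3.42 in Suz12 cKO and 3.25 in WT, against 1.46 and 0.894 for Smad6. The stretches before the starts of this pair are shown as those above (RefSeq, GRCm38.p6, minus strand, chr9:64022060-64022309 and chr9:63757995-63758244, CG dinucleotides in capitals).
Smad6: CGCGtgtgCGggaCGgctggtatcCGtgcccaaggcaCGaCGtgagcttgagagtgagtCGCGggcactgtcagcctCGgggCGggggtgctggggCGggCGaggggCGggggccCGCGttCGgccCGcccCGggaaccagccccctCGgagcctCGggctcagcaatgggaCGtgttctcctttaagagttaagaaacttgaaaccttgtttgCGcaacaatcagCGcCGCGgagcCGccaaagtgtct
Smad3: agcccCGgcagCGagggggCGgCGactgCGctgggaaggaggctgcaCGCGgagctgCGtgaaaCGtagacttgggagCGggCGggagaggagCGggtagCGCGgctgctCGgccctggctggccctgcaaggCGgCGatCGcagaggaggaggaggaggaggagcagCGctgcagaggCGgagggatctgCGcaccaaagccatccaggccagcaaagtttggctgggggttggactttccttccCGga
They hold 27 and 22 CG dinucleotides, numbers reached by 10.4% and 18.9% of genes.

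Smad9, a BMP effector, was after Smad3 the most marked Smad gene per kb over the 4 libraries, with 75.1 ± 4.46 CPM in Suz12 cKO and 77.3 ± 8.84 CPM in WT (SD, n = 2 each). Apart from Smad6, the other Smad genes stood at low levels. Smad2, the partner of Smad3, had 6.35 and 3.47 CPM in Suz12 cKO, against 7.28 and 10.4 CPM in WT. Smad4, the common partner of all receptor Smads, had 7.26 and 8.37 CPM in Suz12 cKO, against 10.4 and 10.9 CPM in WT. Both had non-overlapping groups with lower values in Suz12 cKO but did not pass the test, with log2 fold changes of −0.84 ± 0.44 (adjusted p = 0.289) and −0.44 ± 0.37 (adjusted p = 0.581). Smad7, the inhibitor of TGF-β receptors, had 5.16 ± 0.459 CPM in Suz12 cKO and 11.4 ± 0.130 CPM in WT, a log2 fold change of −1.14 ± 0.40 with an adjusted p of 0.0636, called as lost with upper-quartile factors (adjusted p = 0.0484) and under no other alternative run. Smad1 (5.05 ± 1.83 CPM in Suz12 cKO and 7.44 ± 2.93 CPM in WT) and Smad5 (5.43 ± 2.12 and 8.68 ± 0.745 CPM), effectors of BMPs, had adjusted p of 0.582 and 0.421. Low-level genes in general leaned the same way: below the median level the median log2 fold change was −0.27 over the 20 genes of the pathway and −0.15 over all 8376 tested. The 20 include Smad1, Smad2, Smad4, Smad5 and Smad7 themselves. Of the 20, 55% had a negative value, against 62.2% of the 8376. The part of level in the Smad values was not tested.

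Secreted antagonists were mostly well marked, and 0 of 6 antagonist and ligand-processing genes was called. Nog (noggin), which traps BMPs, had 81.6 and 66.4 CPM in Suz12 cKO, against 74.0 and 77.4 CPM in WT. Fst (follistatin), which traps activin, had 75.0 and 73.9 CPM in Suz12 cKO, against 60.6 and 52.5 CPM in WT. Nog overlapped between genotypes (log2 fold change −0.03, 95% interval −0.30 to 0.24), and Fst did not, at 0.39 ± 0.15, but its adjusted p was 0.0879. Bmp1, a metalloprotease that cleaves chordin and procollagen and is no ligand despite its name, had 201.0 ± 2.14 CPM in Suz12 cKO and 176 ± 13.3 CPM in WT (adjusted p = 0.317). Chrd (chordin; 21.2 ± 4.33 CPM in Suz12 cKO and 22.1 ± 1.41 CPM in WT, with 53.6% of its window overlapped) and Bmper, which binds BMPs (276 ± 15.9 and 259 ± 11.9 CPM), had adjusted p of 0.943 and 0.681. Grem1 (gremlin), another BMP trap, was low, at 6.17 ± 2.31 CPM in Suz12 cKO and 4.67 ± 1.72 CPM in WT (adjusted p = 0.709).

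**Figure D3:**
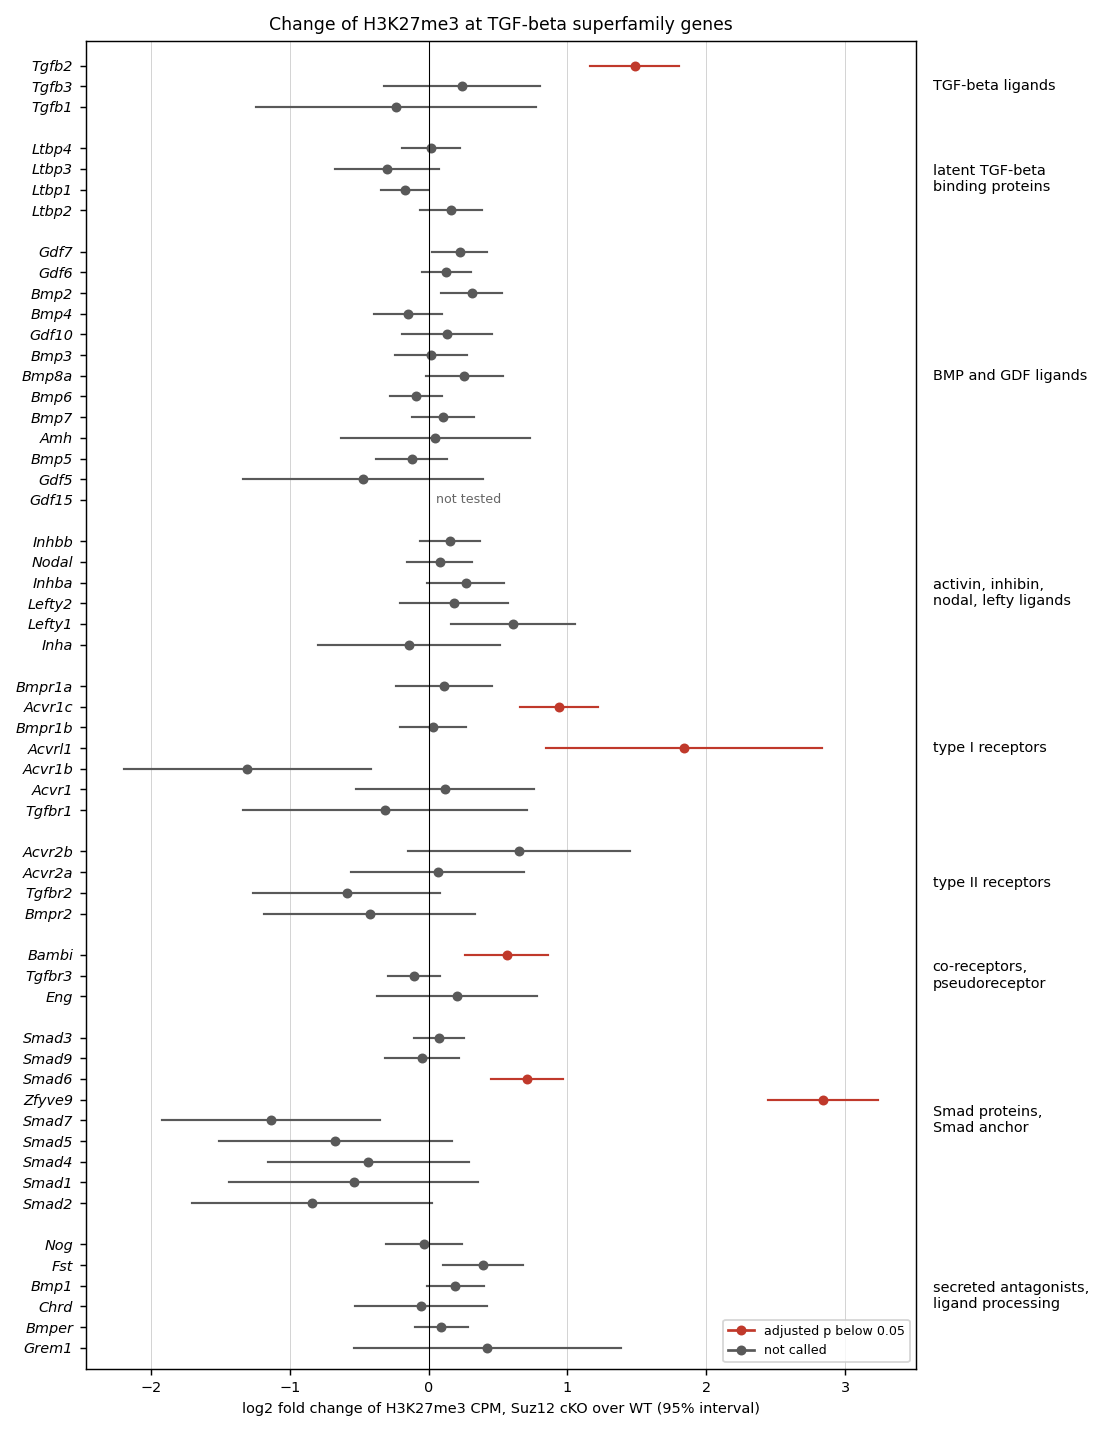
Log2 fold change of H3K27me3, Suz12 cKO over WT, of the 54 genes tested (points) with 95% intervals (lines) from edgeR's fit, grouped by role; red marks the 6 genes with an adjusted p below 0.05. The red intervals lie above 0, and the intervals of Acvr1b (−2.20 to −0.42) and Smad7 (−1.92 to −0.35) lie below it although these genes did not pass the adjusted threshold.

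The gains were spread over the classes of level. Of the 20 genes of the pathway below the median level of all genes tested, 3 gained (15.0%, against 2.87% of all genes of that class), of the 22 between the median and the top 10% 2 gained (9.09%, against 5.72%), and of the 12 in the top 10% 1 gained (8.33%, against 7.40%). The 3 in the lowest class include Acvrl1, testable only through its Suz12 cKO libraries, so nothing is read from that share. The median log2 fold changes of these classes were −0.27, 0.06 and 0.17, beside −0.15, 0.04 and 0.10 over all genes tested. In Suz12 cKO the 6 gained genes lay between 0.394 (Acvrl1) and 4.88 CPM per kb (Bambi), with Zfyve9, Tgfb2, Acvr1c and Smad6 at 0.903 to 1.46, under Inhbb (12.7), Gdf6 (20.7) and Gdf7 (25.3). The nearest tested protein-coding genes on either side of the 6 gained genes numbered 12, and 0 of them was called, against 6.42% of all genes tested. Lyplal1, Rrp15, Cytip and Cul2 among them were sparse, with SE of 0.49 to 0.64, and Lyplal1 and Lyzl1 lie 505 and 649 kb away. With so few genes, nothing is read from this 0.

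**Figure D4:**
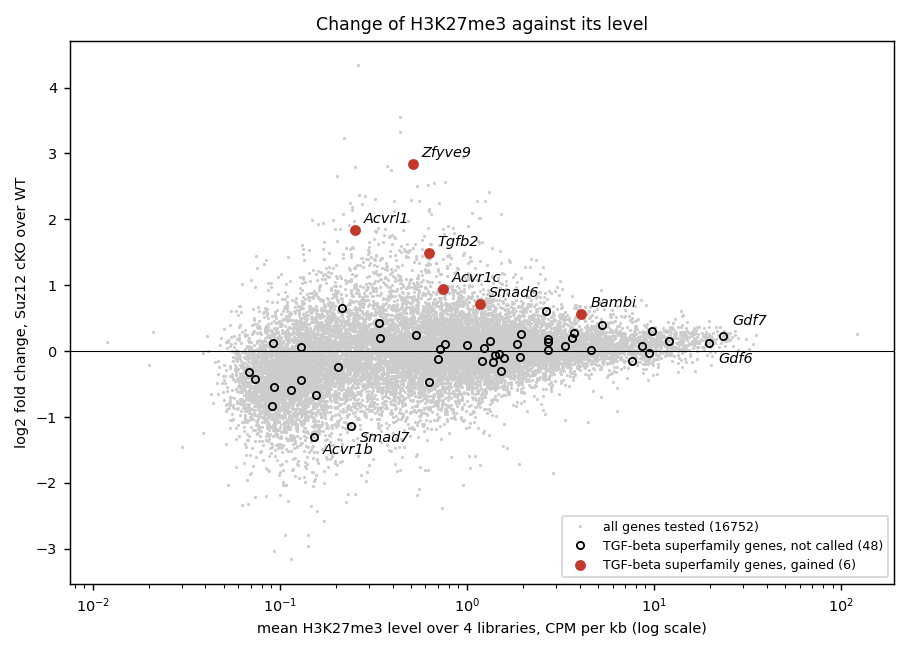
Log2 fold change of H3K27me3, Suz12 cKO over WT, against the mean level over 4 libraries in CPM per kb (log axis), for all 16752 genes tested (grey), the 48 pathway genes not called (open circles) and the 6 gained (red). Spread widens toward low levels, the most marked genes Gdf7 and Gdf6 lie near 0, and Zfyve9 lies near the upper edge of all genes.

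The genes of the pathway were rich in CG dinucleotides before their starts, and those with at least 20 spanned nearly the whole range of levels. A start was found in the promoter table for 37 of the 55 genes, with a median of 21 CG dinucleotides in the 250 bases before it, against 9 over 18458 genes. At least 20 were found in 21 of the 37 (56.8%), against 23.1% of all genes, and the levels of these 21 spanned 0.0681 (Tgfbr1) to 23.4 CPM per kb (Gdf7). Gdf7 holds exactly 20, and its level is uncertain, as 88.6% of its window overlaps others. The genes with the most, Acvr2a (49), Acvr1 (46) and Acvr1b (42), stood low, at 0.129, 0.0920 and 0.152 CPM per kb. Across the 37 genes the Spearman correlation of the number of CG dinucleotides with the level was −0.27, a description over genes that share libraries and are not independent. The genes without a start include Gdf6, Bmp2, Nog, Fst, Bambi and Bmp1, which were among the most marked of the pathway. They also include the low-level genes Smad2, Smad4, Smad7 and Acvrl1. How the correlation would stand with the missing genes was not tested. Tgfb2, which gained, and Gdf7, the most marked, are shown for contrast (RefSeq, GRCm38.p6, minus strand, chr1:186705990-186706239 and chr12:8301955-8302204, CG dinucleotides in capitals).
Tgfb2: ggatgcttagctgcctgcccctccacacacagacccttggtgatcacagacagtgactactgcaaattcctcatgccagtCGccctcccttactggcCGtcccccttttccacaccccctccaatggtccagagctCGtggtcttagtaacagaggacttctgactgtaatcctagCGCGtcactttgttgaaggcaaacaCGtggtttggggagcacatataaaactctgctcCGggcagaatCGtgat
Gdf7: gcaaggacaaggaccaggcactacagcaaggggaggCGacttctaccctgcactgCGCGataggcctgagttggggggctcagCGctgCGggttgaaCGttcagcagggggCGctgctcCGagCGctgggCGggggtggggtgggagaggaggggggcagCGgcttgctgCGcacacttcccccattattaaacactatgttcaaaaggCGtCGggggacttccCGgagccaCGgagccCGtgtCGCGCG
They hold 8 and 20 CG dinucleotides, numbers reached by 55.4% and 23.1% of genes.

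**Figure D5:**
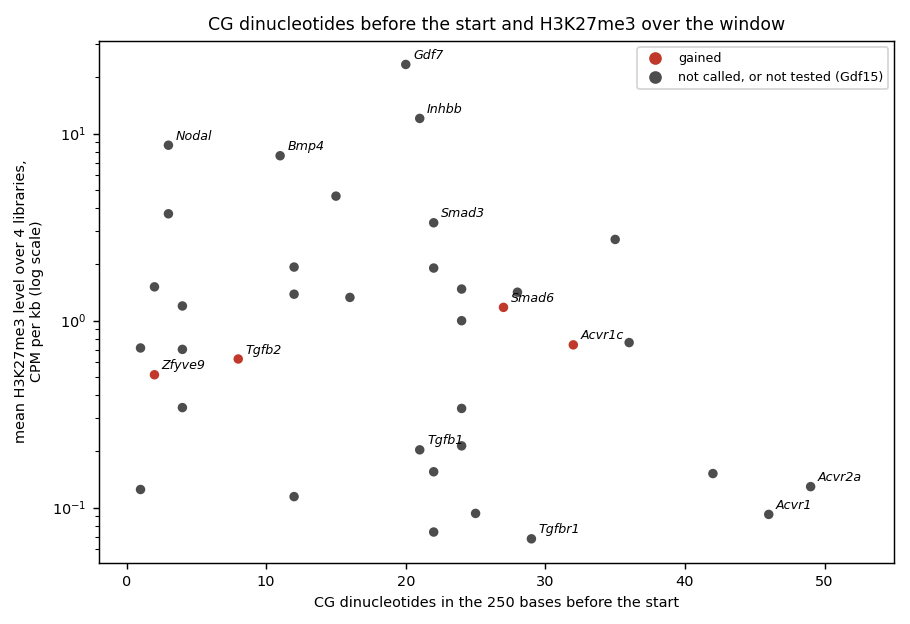
Mean H3K27me3 level over 4 libraries in CPM per kb (log axis) against the number of CG dinucleotides in the 250 bases before the start, for 37 genes of the pathway, with gained genes in red. Gdf7 with 20, Tgfb1 with 21 and Tgfbr1 with 29 CG dinucleotides cover nearly the whole range of levels, and the gained genes run from 2 (Zfyve9, whose counted window may not hold this start) to 32 (Acvr1c).

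A further list of 57 genes of the same pathway, holding more ligands, antagonists, co-receptors, activators of latent TGF-β, Smad regulators and targets, was read beside these. Of the 44 tested, 1 gained and 0 lost (2.27%, against 4.46% and 1.96% of all genes), with a median log2 fold change of 0.07. The gained gene was Pmepa1, a TGF-β-induced membrane protein that sequesters receptor Smads, with 125.8 and 119.5 CPM in Suz12 cKO, against 84.0 and 68.8 CPM in WT (log2 fold change 0.68 ± 0.13, edgeR adjusted p = 1.59e-05). Its groups did not overlap.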

How the data were processed

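H3K27me3 Cut&Tag libraries of sorted alveolar macrophages, 2 Suz12 cKO and 2 WT, were sequenced with 36 bp paired reads. The authors deposited raw counts per Entrez gene window, for which the submitters' processing notes name mm10 and featureCounts. The sources used here do not give the aligner, the counting options or how duplicates were handled. Window lengths equalled, for 11525 of 27095 genes, the reference span plus 3 kb on each side. Of 2446 windows wholly within others, 67.1% had 0 counts in all libraries, against 1.27% of 10808 overlapping none, so reads in overlaps were mostly not counted. Symbols and positions came from RefSeq's GRCm38.p6 table (25204 IDs, 93.0%).

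Genotypes were compared with edgeR 4.0.16 under R 4.3.3 (filterByExpr, TMM, glmQLFit, glmQLFTest, genotype only) over 16752 genes; 10343 fell below the filter. Every adjusted p is from this test unless another tool is named. SE was taken as the size of the log2 fold change over the root of the F statistic. Nothing says the replicates came from separate animals beyond the words biological replicates, so p-values measure the spread between these libraries, and 2 libraries per genotype limit the precision. Members and lists were chosen with earlier results of these data known. Per-library values are given for called members, the 10 highest per kb, and Tgfb1, Tgfbr1, Tgfbr2, Smad2, Smad3 and Smad4; further members are given by mean and SD, apart from Acvr1 and Acvr1b, neighbours of called genes, chosen after their values were seen. Alternatives were other scalings, filters, DESeq2 1.42.0, thinned counts, each library left out and the replicate number as a block.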

Additional observations from a re-analysis of the deposited data

How the results depend on the processing

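Zfyve9, Tgfb2, Acvr1c and Smad6 were called as gained under all 13 alternatives, with log2 fold changes of 2.53 to 3.33, 1.37 to 1.70, 0.85 to 1.15 and 0.62 to 0.92. Acvrl1 (1.55 to 2.30) and Bambi (0.48 to 0.78) kept their direction but lost the call under 3 and 4 alternatives, and DESeq2 gave Acvrl1 no adjusted p; with a mean of at least 50 counts Acvrl1 was not tested. The number of pathway genes gained was 4 to 9 with a library left out and 4 to 6 otherwise; that lost was 0 to 1 with a library left out, 2 with upper-quartile factors, 1 with a mean of at least 50 counts and 1 with thinned counts. Across all windows, 1076 genes were called, 474 with housekeeping scaling, 376 by DESeq2, and 427 to 956 with a library left out. The median log2 fold change of pathway genes was 0.29 with housekeeping scaling, which shifts the median of all genes by 0.21 and rests on 383 to 540 counts per library, and −0.01 with upper-quartile factors. Up to 9 of the 48 uncalled pathway genes changed sign under an alternative (9 with housekeeping scaling and 9 without WT library 2). Gdf5 was at 0.02 without WT library 1 and Grem1 at −0.02 without Suz12 cKO library 2. Of the genes followed under every setting, those that reversed were Smad3 at −0.0096 with upper-quartile factors; Tgfb1 at 0.23 with thinned counts and −0.71 to 0.22 with a library left out; Tgfbr1 at −0.64 to 0.20 with a library left out. With a library left out, the lone library of a genotype is assumed to vary like the others. The cause of these changes was not tested. The replicate numbers did not pair the libraries (correlation of deviations 0.00844); with the replicate block 1039 genes were called, 6 pathway genes gained and 0 lost, and no call named here changed. Tgfb1, Tgfbr1 and Smad2, with 8 to 23 counts per library, are limited by depth.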
